A study of Mus musculus with 18 samples.

Results

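The genes described here encode class I major histocompatibility complex (MHC) molecules and the machinery that supplies them with peptides: B2m, H2-D1, H2-K1, Tap1, Tap2, Tapbp, Psmb8, Psmb9, Psmb10 and Nlrc5. The 10 members were found by gene name, 1 row each, among 34385 genes of a knockdown table and 34396 genes of an overexpression table. The set was proposed after B2m and H2-D1 had been seen lower with Nmnat1 knockdown than with scramble, so the members were chosen by their measured difference there, and values of that comparison are a description and carry no p.

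The retinas came from the outbred ICR stock of mice at postnatal day 0.5. They received an EGFP plasmid and 1 further plasmid by electroporation and spent 3 days as explants, and cells positive for EGFP were then sorted for RNA-seq. The further plasmid expressed a scramble sequence, an shRNA against Nmnat1 or an shRNA against Nmnat2 in the knockdown table. In the overexpression table it was an empty vector or expressed Nmnat1 or Nmnat2, which encode enzymes of NAD synthesis. Each of the 6 groups had 3 libraries and every group carried EGFP. The promoters of the plasmids and the number of animals per library are not stated in these sources, and nothing says that the libraries of a group came from separate cultures, so that p-values measure only the spread between these libraries. The tissue is labelled retina, and the photoreceptor genes Otx2 (974 to 2041 ppm, a unit given below) and Crx (352 to 809 ppm) were high in all 18 libraries.

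Class I molecules sit on the surface of nearly all nucleated cells and show peptides of the cell's own proteins to CD8+ T cells and natural killer cells. A heavy chain (H2-K, H2-D) pairs with the light chain beta-2 microglobulin. Proteasomes cut the peptides, the TAP1-TAP2 transporter moves them into the endoplasmic reticulum, and tapasin (Tapbp) holds the empty heavy chain at the transporter until a peptide binds. Interferon-gamma raises these genes, exchanges the catalytic subunits of the proteasome for Psmb8, Psmb9 and Psmb10, and acts in part through NLRC5, a transactivator of class I promoters. Neurons are known for low class I levels, and class I proteins have been linked to synapse pruning in the visual system.

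Levels are in ppm, parts per 1000000 of a library's column sum, computed from deposited values that were already scaled by transcript length, and fold changes are differences of log2(ppm + 1). A gene was tested where it reached 1 ppm in 3 or more of the 9 libraries. By an estimate from the steps of low values, 1 ppm stood for 11.3 to 21.1 reads of a transcript with an effective length of 1 kb. Library N2_2 of the Nmnat2 knockdown stood apart from the other 8 of its table on the first principal component (129, against -31.2 to -5.83) and had the highest share of mitochondrially encoded transcripts (6.51%, against 2.29% to 4.67%). In the overexpression table the libraries numbered 1 of the 3 groups lay on the positive side of that axis (24.5 to 91.4) and the other 6 on the negative side (-50.0 to -4.14). Nmnat1 stood at 17.0 to 20.9 ppm with scramble and 7.37 to 8.54 ppm with its knockdown, without overlap, and at 14797 to 27832 ppm with its overexpression. Nmnat2 stood at 0.624 to 6.22 ppm with scramble and 0.503 to 1.27 ppm in the libraries labelled Nmnat2 knockdown, ranges that overlap, and at 20911 to 22818 ppm with its overexpression.

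In the Nmnat1 knockdown the light chain and both classical heavy chains were lower than with scramble, by 2.50- to 2.87-fold between the means. B2m, the light chain, was at 132.9, 138.0 and 122.4 ppm in the scramble libraries and at 39.7, 53.5 and 49.4 ppm in the Nmnat1 knockdown libraries. The groups do not overlap, and the means of 131.1 ± 7.97 and 47.5 ± 7.10 ppm (SD, n = 3) are 2.76-fold apart, a log2 fold change of -1.45 ± 0.22 (SE). H2-D1, a classical heavy chain, stood at 185.7, 173.7 and 208.2 ppm with scramble and at 55.1, 71.0 and 72.0 ppm with Nmnat1 knockdown. All 3 knockdown libraries lay below all 3 scramble libraries, with means 2.87-fold apart and a log2 fold change of -1.51 ± 0.20. H2-K1, the other classical heavy chain, stood at 24.8, 42.6 and 40.4 ppm with scramble and at 16.9, 12.6 and 13.6 ppm with Nmnat1 knockdown. Its groups did not overlap either, with means 2.50-fold apart and a log2 fold change of -1.24 ± 0.26.

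**Figure D1:**
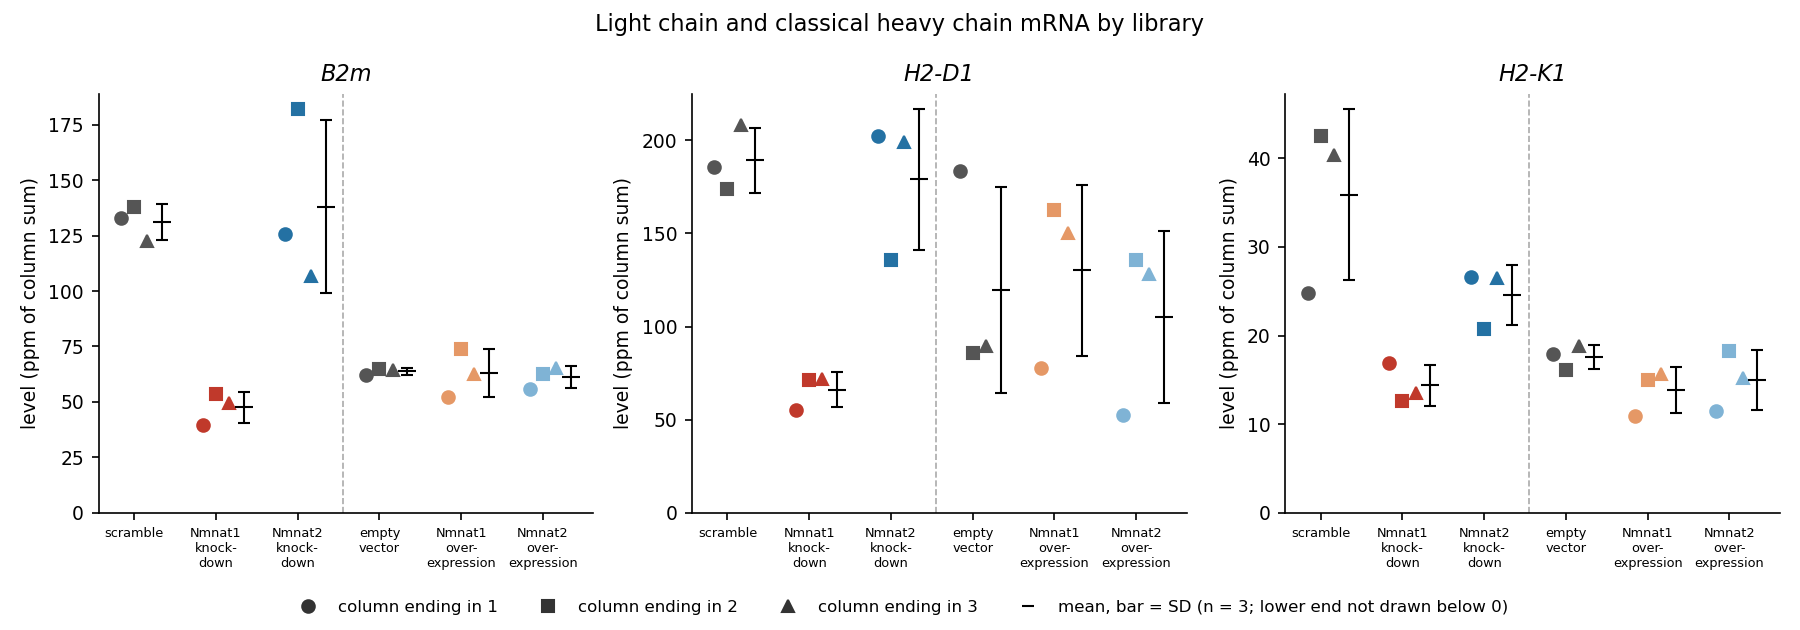
Level of B2m, H2-D1 and H2-K1 in ppm of the column sum (vertical axes) in each of the 18 libraries, by group (horizontal axes). Symbols show the number that ends the library's column name, black bars the mean and SD of 3 libraries, and the dashed line parts the tables, which were normalized separately; the Nmnat1 knockdown libraries (39.7 to 53.5 ppm for B2m) lie below all scramble libraries in the 3 panels.

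The proportion of light to heavy chain mRNA was alike in both groups. H2-D1 was at 1.26 to 1.70 times the B2m level in the scramble libraries and at 1.33 to 1.46 times in the Nmnat1 knockdown libraries, so the ratio of the knockdown lay inside the range of the control. The ratio of H2-K1 to B2m was 0.187 to 0.330 with scramble and 0.236 to 0.427 with Nmnat1 knockdown, which also overlap. H2-D1 and H2-K1 are similar paralogs and ICR mice may carry several alleles of each, so how reads were divided between them is uncertain. Their sum, which that division touches less, was 210.5 to 248.6 ppm with scramble and 72.0 to 85.6 ppm with Nmnat1 knockdown. The sum does not cover any reads divided with other class I heavy chains. B2m has no such copy and 1 annotated transcript of 860 bases, for which the level corresponded to about 973 to 1627 reads with scramble and 281 to 491 reads with Nmnat1 knockdown.

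The promoters of these 3 genes share a short arrangement of bases that the choice of members did not use. Class I promoters carry an enhanceosome of X and Y boxes, bound by CREB/ATF and RFX factors and by NF-Y, on which NLRC5 acts, and further upstream NF-kappaB and interferon response elements. In RefSeq promoters of GRCm38.p6 the letters TGACG (the core of a CREB/ATF site, as in the X2 box) were followed after 20 bases by ATTGG (the core of an NF-Y site) in B2m, H2-D1 and H2-K1. The stretches are shown because they are what the 3 genes have in common, with the matching letters in capitals, each read on the strand of its gene.
B2m, chr2:122147609-122147638, plus strand: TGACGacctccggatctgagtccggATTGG
H2-D1, chr17:35262993-35263022, plus strand: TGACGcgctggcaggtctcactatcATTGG
H2-K1, chr17:34000359-34000388, minus strand: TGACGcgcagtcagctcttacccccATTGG
This spaced pair occurred in 0.0913% of the 32851 promoters of 250 bases searched on both strands, among them also H2-M3. It was not found in the windows of Tapbp, Tap1, Psmb8, Psmb9 and Psmb10, and no promoter entry was matched for Tap2 and Nlrc5. TGACG alone occurred in 17.8% and ATTGG alone in 33.9% of promoters. The letters and the spacing were chosen with these promoters in view, and a match is a description of sequence, not of binding.

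Upstream of the pair, the letters searched for were matched differently in light and heavy chains. H2-K1 and H2-D1 held GGGATTCCC, an NF-kappaB site, which occurred in 0.301% of promoters, followed closely by AANNGAAA, the core of an interferon response element, on the opposite strand. B2m held AANNGAAA on its own strand and no GGGATTCCC in this window. Only this exact string was searched, so other forms of an NF-kappaB site, in B2m too, would not have been found. The missing match is therefore not read as a missing element. AANNGAAA occurred in 21.3% of promoters. The stretches below show the matches, again in capitals. They are 30 bases for H2-D1 and, for B2m and H2-K1, the 200 bases that also contain the spaced pair.
H2-D1, chr17:35262923-35262952, plus strand: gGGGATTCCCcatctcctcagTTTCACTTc
B2m, chr2:122147486-122147685, plus strand: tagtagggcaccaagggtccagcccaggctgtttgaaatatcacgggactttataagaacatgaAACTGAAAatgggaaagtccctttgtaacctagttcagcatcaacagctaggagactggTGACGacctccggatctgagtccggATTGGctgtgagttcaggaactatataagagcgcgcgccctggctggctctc
H2-K1, chr17:34000349-34000548, minus strand: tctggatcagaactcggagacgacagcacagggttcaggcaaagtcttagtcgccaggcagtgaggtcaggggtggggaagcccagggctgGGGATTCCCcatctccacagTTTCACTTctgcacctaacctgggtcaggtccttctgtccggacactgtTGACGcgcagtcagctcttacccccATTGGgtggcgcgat

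In the GENCODE M21 annotation of GRCm38, 7 of the 10 members lie on chromosome 17, in the MHC. H2-K1 (chr17:33996017-34000347) and H2-D1 (chr17:35262730-35267499) are its classical heavy chain loci, and between them lie Psmb9 (chr17:34181987-34187764), Tap1 (chr17:34187553-34197225), Psmb8 (chr17:34197721-34201454) and Tap2 (chr17:34203527-34216321). Tapbp (chr17:33915899-33929292) precedes them. Psmb10 (chr8:105935735-105938444) and Nlrc5 (chr8:94434356-94527272) are on chromosome 8 and B2m (chr2:122147686-122153083) on chromosome 2. Tap1 and Psmb9 are transcribed away from each other from RefSeq starts that lie 226 bases apart, so that they share a promoter region. The library kit does not mark strand, and 8 of the 10 members are overlapped by another gene model, as B2m is by Patl2 on the opposite strand and Tap1 by Psmb9, whose reads cannot be told apart there.

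The loading and transport genes were not uniform in direction in the Nmnat1 knockdown. Tapbp, which encodes tapasin, was at 16.4, 17.8 and 17.1 ppm with scramble and at 25.4, 23.7 and 18.5 ppm with Nmnat1 knockdown. It was the 1 tested member whose knockdown libraries all lay above the scramble libraries, with a log2 fold change of 0.37 ± 0.23. Tap1 was at 3.29, 1.37 and 2.89 ppm with scramble and 1.50, 0.31 and 1.64 ppm with Nmnat1 knockdown, and Tap2 at 2.64 to 3.64 ppm and 1.33 to 4.14 ppm. The mean of Tap1 was 2.52 ± 1.01 ppm (SD, n = 3) with scramble and 1.15 ± 0.73 ppm (SD, n = 3) with Nmnat1 knockdown. The groups overlapped for both transporter subunits.

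Of the proteasome members, Psmb10 was the most abundant. It encodes the immunoproteasome subunit that replaces Psmb7, and it stood at 35.6, 51.3 and 29.6 ppm with scramble and at 26.4, 28.3 and 18.4 ppm with Nmnat1 knockdown. The knockdown libraries were all lower, with a log2 fold change of -0.64 ± 0.31. As a share of Psmb10 and Psmb7 together, Psmb10 made up 12.7% to 18.9% with scramble and 7.04% to 10.4% with Nmnat1 knockdown. This share also holds a higher Psmb7, at 202.9 to 222.8 ppm with scramble and 242.4 to 260.1 ppm with Nmnat1 knockdown. Psmb8, the counterpart of Psmb5, was at 3.39, 3.98 and 7.46 ppm with scramble and 2.45, 5.08 and 2.43 ppm with Nmnat1 knockdown, ranges that overlap. Psmb9, the counterpart of Psmb6, was at or below 1.11 ppm with scramble and at 0.86 to 1.70 ppm with Nmnat1 knockdown. Over the 9 libraries of the knockdown table Psmb8 was 0.293% to 1.43% of Psmb8 and Psmb5 together, and Psmb9 at most 0.245% of Psmb9 and Psmb6. Among the 3 immunoproteasome subunits only Psmb10 therefore stood at more than a few percent of its counterpart in these libraries.

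Nlrc5, the transactivator, was at low levels. It was at 0.14, 1.87 and 0.29 ppm with scramble, at 0.02, 0.09 and 0.69 ppm with Nmnat1 knockdown and at 0.26, 0.01 and 0.44 ppm with Nmnat2 knockdown. The groups overlapped, and Nlrc5 did not pass the filter on low values in either table.

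**Figure D2:**
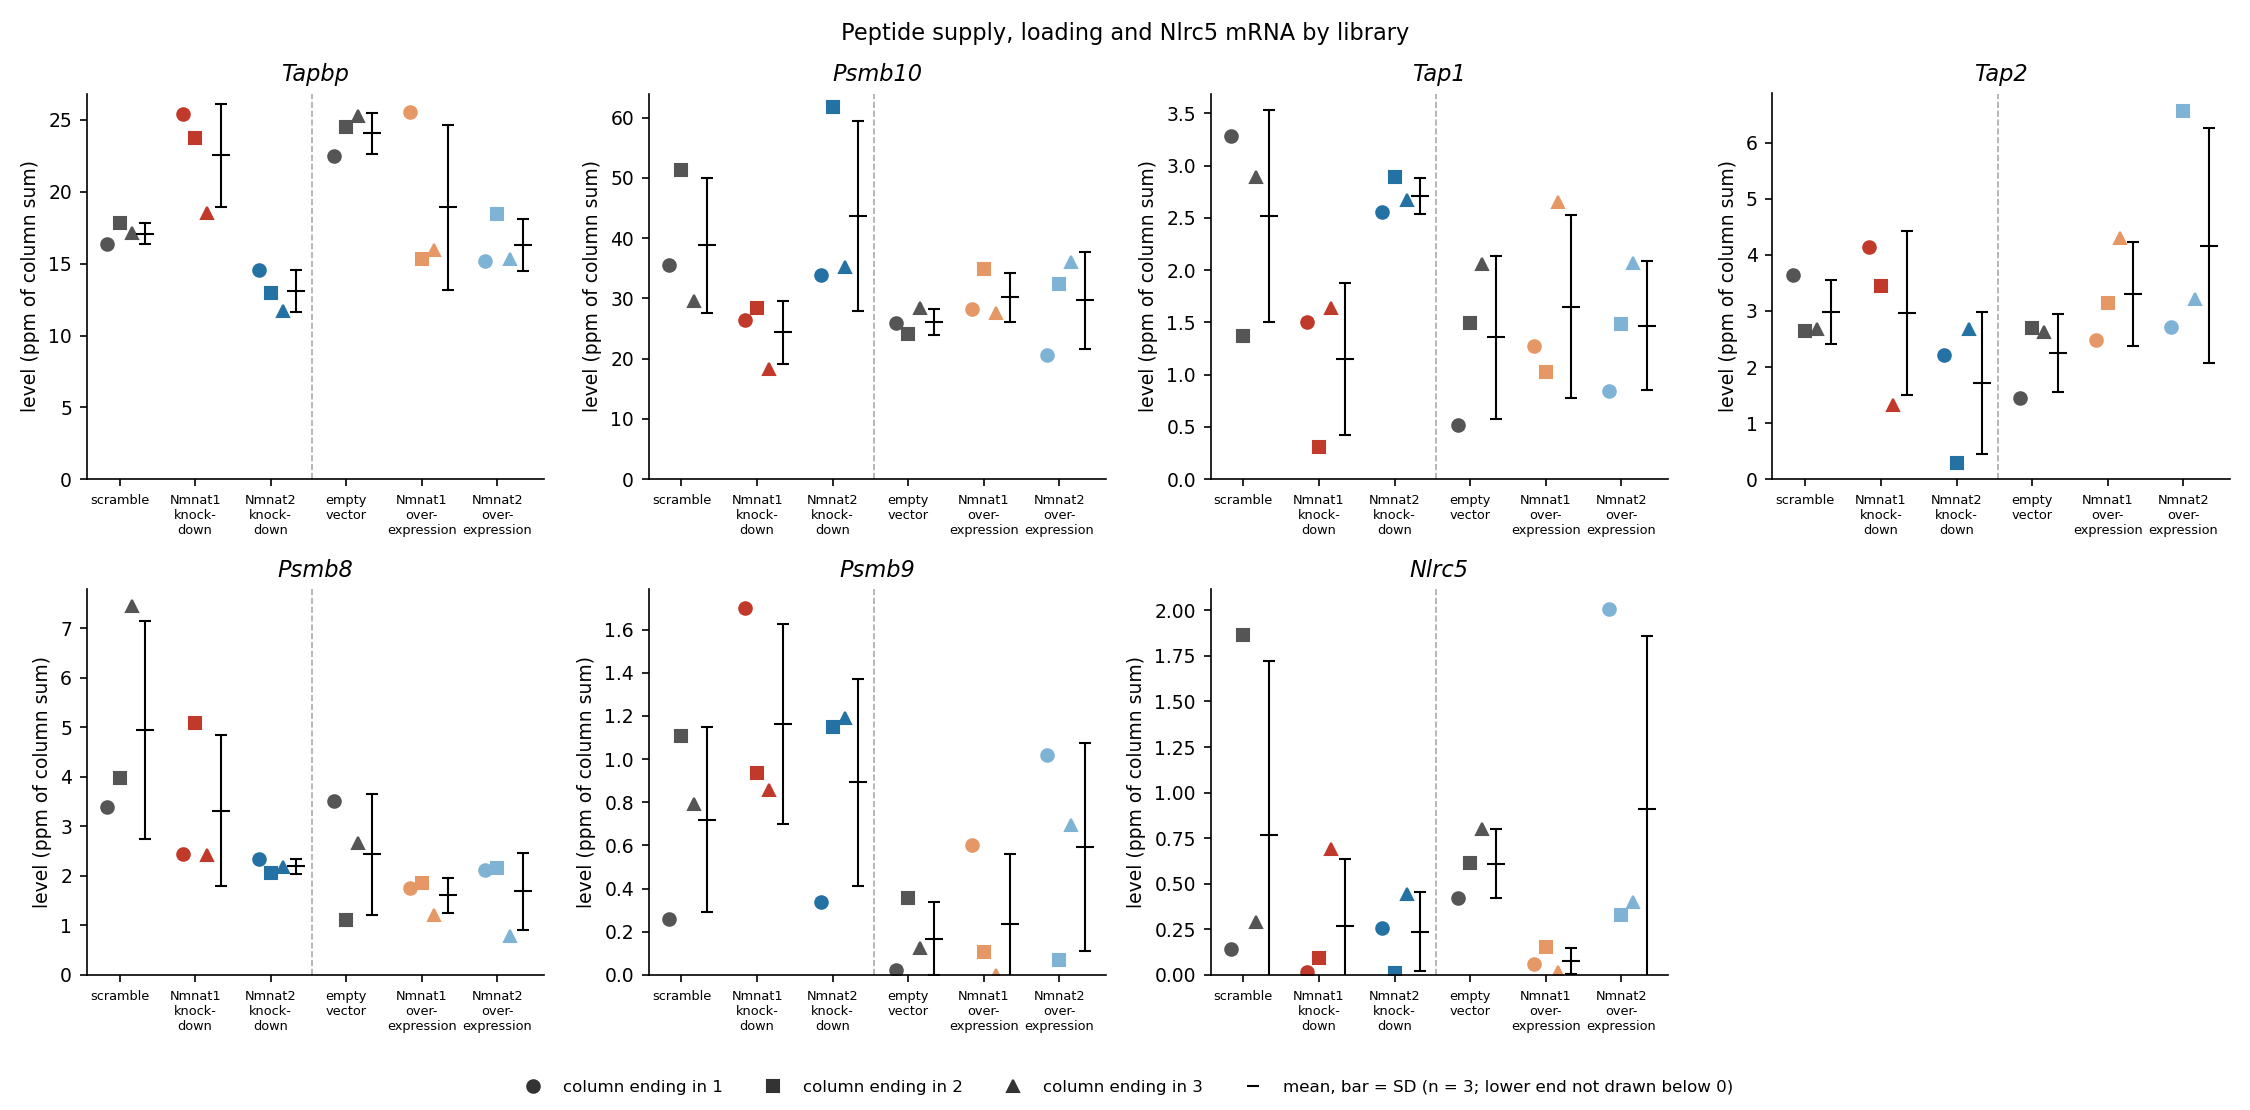
Level in ppm of the column sum (vertical axes, each on its own scale) of the 7 other members in each of the 18 libraries, by group (horizontal axes), with symbols, bars and dashed line as for the light and heavy chains. Tapbp and Psmb10 lie above 10 ppm in every library, whereas the highest values of Tap1, Psmb9 and Nlrc5 are 3.29, 1.70 and 2.01 ppm.

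Of the 9 members tested in the knockdown table, 2 (B2m and H2-D1) were called lower with Nmnat1 knockdown at an adjusted p under 0.05 (limma, Benjamini-Hochberg over all genes), against 0.144% of all 22233 genes tested. The groups did not overlap for 4 members that were lower and 1 that was higher, against 24.8% of all genes. Nothing is read from these shares, since this comparison chose the set. Leaving out any 1 scramble or Nmnat1 knockdown library, or library N2_3, left 0 members called, leaving out N2_1 left 1 (H2-D1), and leaving out N2_2 gave 3 (H2-K1 in addition). The log2 fold change of B2m stayed between -1.54 and -1.33 and that of H2-D1 between -1.58 and -1.39 over these 9 fits.

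Markers of several retinal cell types moved in the same libraries as the light and heavy chains. Of all genes tested, 24.8% did not overlap between these groups in either direction. The summed level of 12 Müller glia markers was 5159 to 5849 ppm with scramble and 2836 to 2976 ppm with Nmnat1 knockdown, and 10 of the 12 were lower without overlap. The 12 retinal progenitor markers summed to 480.7 to 485.2 ppm and 232.9 to 263.5 ppm, with 8 lower without overlap, and the 12 amacrine and ganglion cell markers to 154.0 to 184.8 ppm and 62.1 to 67.9 ppm, with 6 lower and 2 (Pou4f1 and Sncg) higher without overlap. Calb2 alone went from 83.5 to 96.9 ppm down to 14.3 to 16.2 ppm, and the other 11 of these markers summed to 70.4 to 91.1 ppm and 45.8 to 53.6 ppm. The 12 endothelial markers summed to 71.0 to 76.7 ppm with scramble and 44.7 to 52.7 ppm with Nmnat1 knockdown, most of it from Kdr (39.9 to 43.5 and 28.7 to 30.3 ppm). Of the 10 tested, 2 were lower without overlap, a share below that of all genes. Retinal pigment epithelium markers moved in both directions. Rlbp1, which is also on the Müller glia list, was at 239.1 to 249.96 ppm and 95.4 to 119.1 ppm, while the other 8 summed to 47.4 to 58.0 ppm with scramble and 71.8 to 82.6 ppm with Nmnat1 knockdown, among them Tyrp1 at 5.48 to 9.15 ppm and 21.8 to 28.1 ppm. No marker of these lists was at 0 in all libraries of either group. The part of these cell types in the lower B2m, H2-D1 and H2-K1 levels was not tested, and in bulk RNA fewer cells of a type and less RNA per cell cannot be told apart. The 20 microglia and macrophage markers summed to 26.7 to 44.9 ppm with scramble and 36.9 to 60.9 ppm with Nmnat1 knockdown, and these sums overlapped. The 10 photoreceptor markers summed to 7164 to 7498 ppm and 7904 to 8248 ppm. The 7 T and NK cell markers, of which 5 were tested, summed to 14.6 to 22.95 ppm with scramble and 16.0 to 22.4 ppm with Nmnat1 knockdown, with Cd8a at 7.17 to 8.57 ppm and 7.16 to 9.20 ppm and with Nkg7 and Trbc2 at 0 in all libraries of both groups.

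With Nmnat2 knockdown, compared with the same scramble libraries, no member was called. Those scramble libraries took part in the choice of the set, so the p-values of this comparison are not independent of that choice. B2m was at 125.6, 182.0 and 106.7 ppm, a range that encloses the scramble values, with a mean of 138.1 ± 39.2 ppm (SD, n = 3) and a log2 fold change of 0.04 ± 0.22 (SE, adjusted p = 0.954, limma). The highest value, 182.0 ppm, was that of N2_2, and the lowest, of N2_3, lay below all scramble libraries. H2-D1 was at 202.6, 135.6 and 199.3 ppm, with a log2 fold change of -0.10 ± 0.20 (adjusted p = 0.855, limma). Here N2_2 was the lowest, below all scramble libraries, while the others lay within their range. In N2_2 the ratio of H2-D1 to B2m was 0.745, against 1.61 and 1.87 in the other Nmnat2 knockdown libraries and 1.26 to 1.70 with scramble. Without N2_2 the log2 fold change of B2m was -0.18 and that of H2-D1 0.09, opposite in sign to the values with it.

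H2-K1 and Tapbp were lower in the Nmnat2 knockdown than with scramble on average, without passing the test. H2-K1 was at 26.6, 20.7 and 26.5 ppm, with a log2 fold change of -0.50 ± 0.26 (adjusted p = 0.370, limma), and overlapped the scramble range of 24.8 to 42.6 ppm. Tapbp was at 14.6, 12.9 and 11.7 ppm, below all scramble libraries, with a log2 fold change of -0.37 ± 0.23 (adjusted p = 0.455, limma). Psmb8, at 2.35, 2.05 and 2.17 ppm, also lay below all scramble libraries, the lowest of which was 3.39 ppm. Psmb10, at 33.9, 61.8 and 35.2 ppm, and Tap1, at 2.56, 2.89 and 2.67 ppm, overlapped their scramble ranges, as did Tap2 and Psmb9.

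In this comparison 0 of 9 members passed the limma threshold and 0 had an unadjusted p under 0.05, against 0.436% of all genes called. The groups did not overlap for 2 members, both lower, against 21.9% of all genes. The median log2 fold change of the 9 members was -0.10, and that of all genes tested was -0.23. Median-of-ratios scaling moved the 5 members with at least 5 ppm upward in this comparison, B2m to 0.28 and H2-D1 to 0.14. The summed Müller glia markers were at 2385 to 3879 ppm, against 5159 to 5849 ppm with scramble, and 4 of the 12 were lower without overlap. Most of that difference was in Apoe, at 1514 to 2196 ppm against 3531 to 4227 ppm, and the other 11 summed to 870.6 to 1683 ppm, overlapping scramble at 1622 to 1654 ppm. In the same libraries the amacrine and ganglion cell markers were higher in sum (275.8 to 574.6 ppm). Calb2 gave 161.4 to 340.9 ppm of that sum, and 4 of the 11 tested were higher and 0 lower without overlap. The 10 photoreceptor markers were lower in sum (3683 to 4507 ppm, against 7164 to 7498 ppm with scramble). Of these, 7 were lower and 0 higher without overlap, and Prph2, Pde6b and Nr2e3 passed the limma threshold. The endothelial markers overlapped scramble (29.4 to 81.4 ppm). The part of these cell types in these values was not tested.

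**Figure D3:**
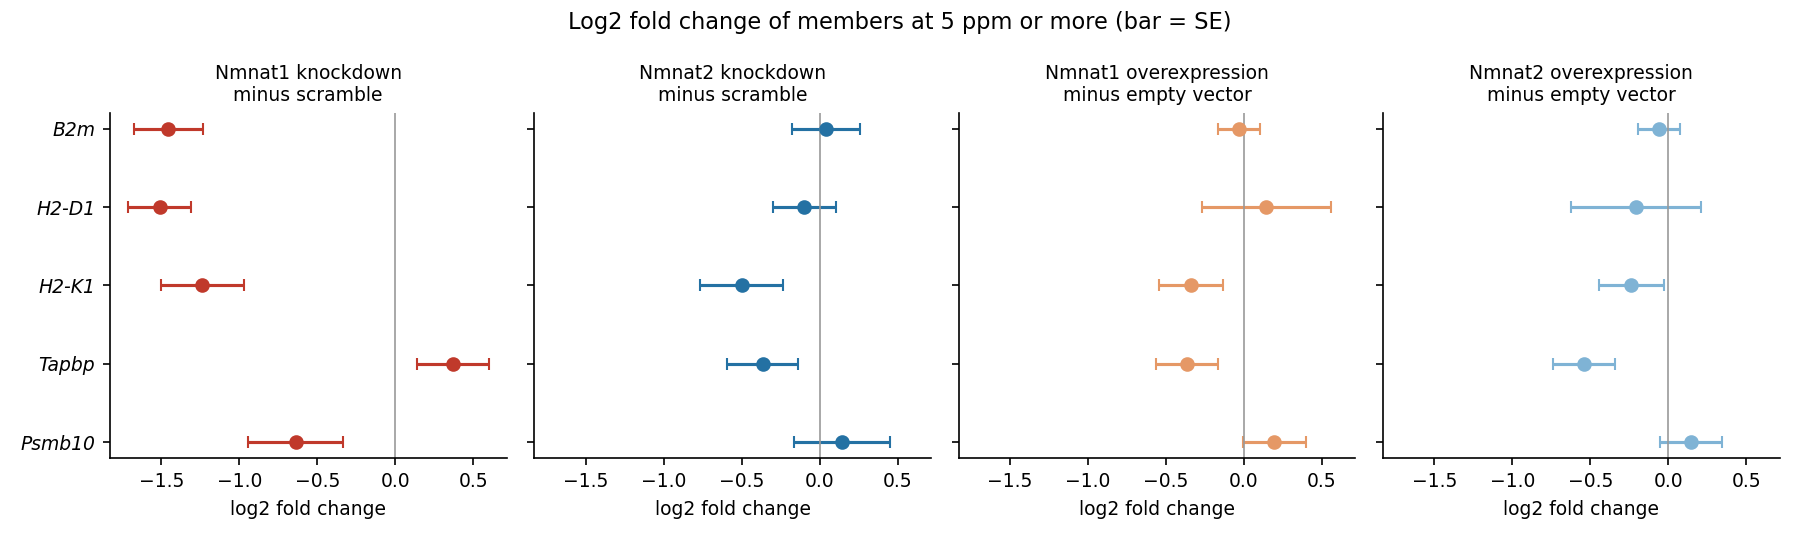
Log2 fold change of log2(ppm + 1) against the control of the same table (horizontal axes, bars are the SE of the limma fit, 3 libraries per group) for the 5 members with at least 5 ppm (vertical axis). B2m, H2-D1 and H2-K1 lie between -1.51 and -1.24 with Nmnat1 knockdown, and the B2m values of the 3 other comparisons lie between -0.06 and 0.04.

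Set directly against each other, the Nmnat1 and Nmnat2 knockdowns differed by a log2 fold change of -1.49 ± 0.22 for B2m and -1.41 ± 0.20 for H2-D1. These were the 2 of 9 members called in that contrast (limma, adjusted p under 0.05), against 2.06% of all genes, and since it contains the Nmnat1 knockdown libraries that led to the set, it too is a description. Leaving out N1_1 left 0 members called, leaving out N1_3 left 1 (H2-D1), and leaving out N2_2 gave 4 (H2-K1 and Tapbp in addition). Tapbp differed in the opposite direction, with 18.5 to 25.4 ppm in the Nmnat1 knockdown and 11.7 to 14.6 ppm in the Nmnat2 knockdown.

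The overexpression table used libraries that were not part of the choice. Nmnat1 overexpression left B2m at 52.2, 73.7 and 62.7 ppm, against 61.9, 64.7 and 64.6 ppm with empty vector. The control values lay inside the range of the overexpression libraries, with means of 62.9 ± 10.8 and 63.7 ± 1.57 ppm (SD, n = 3) and a log2 fold change of -0.03 ± 0.13 (adjusted p = 0.976, limma). With Nmnat2 overexpression B2m was at 55.7, 62.7 and 65.4 ppm, a log2 fold change of -0.06 ± 0.13 (adjusted p = 0.934, limma). Thus in neither arm was a change of B2m detected, at an SE of 0.13 on the log2 scale that was smaller than in the knockdown table.

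H2-D1 varied more than any difference between the group means in this table. It was at 183.3, 85.5 and 89.5 ppm in empty vector libraries 1, 2 and 3, at 77.7, 162.7 and 150.2 ppm with Nmnat1 overexpression and at 52.2, 135.8 and 128.1 ppm with Nmnat2 overexpression. The library numbered 1 was the highest of the control and the lowest of both overexpression groups. Over all libraries the log2 fold change was 0.14 ± 0.41 with Nmnat1 (adjusted p = 0.967, limma) and -0.21 ± 0.41 with Nmnat2 overexpression (adjusted p = 0.920, limma). Without the 3 libraries numbered 1, which stood apart on the first principal component, it was 0.83 ± 0.07 and 0.59 ± 0.07, in a fit with 2 libraries per group. The libraries left out are those in which H2-D1 went the other way, so these values are a description and carry no p. The B2m log2 fold changes were 0.07 and -0.01 in that fit. Relative to B2m, H2-D1 stood at 2.96 in empty vector library 1 and at 1.32 and 1.39 in the others, at 1.49 to 2.39 with Nmnat1 and at 0.938 to 2.17 with Nmnat2 overexpression. The direction of H2-D1 thus depended on the libraries numbered 1. What the number stands for is not stated in the labels.

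**Figure D4:**
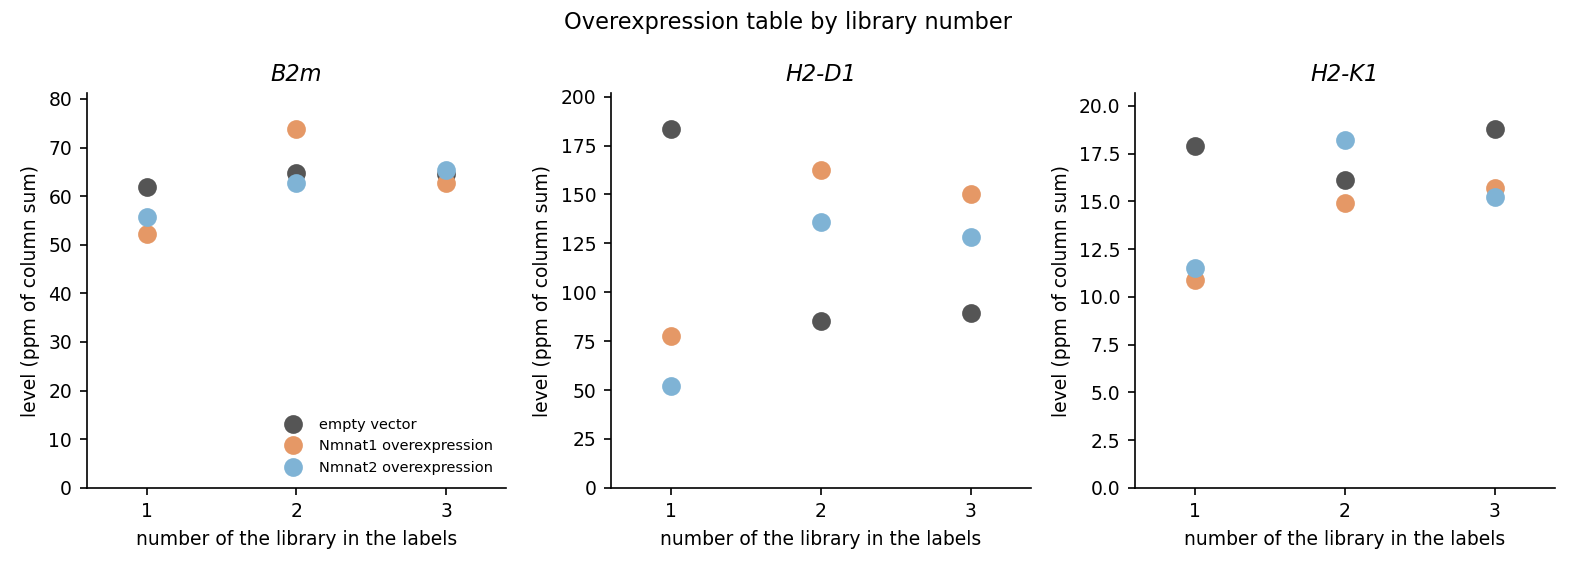
Level in ppm of the column sum (vertical axes) of B2m, H2-D1 and H2-K1 in the 9 libraries of the overexpression table, by the number of the library in the labels (horizontal axes), coloured by group; the numbers have no order. H2-D1 is highest with empty vector among the libraries numbered 1 (183.3 ppm) and lowest with empty vector among those numbered 2 and 3 (85.5 and 89.5 ppm), while B2m stays between 52.2 and 73.7 ppm.

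H2-K1 was at 17.9, 16.1 and 18.8 ppm with empty vector, at 10.9, 14.9 and 15.7 ppm with Nmnat1 overexpression and at 11.5, 18.2 and 15.2 ppm with Nmnat2 overexpression. The Nmnat1 libraries all lay below the control libraries, with a log2 fold change of -0.34 ± 0.21 that did not pass the test (adjusted p = 0.691, limma). With Nmnat2 the ranges overlapped and the log2 fold change was -0.24 ± 0.21 (adjusted p = 0.791, limma).

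Tapbp came nearest to a change in this table. It was at 22.5, 24.5 and 25.3 ppm with empty vector, at 25.6, 15.3 and 15.9 ppm with Nmnat1 overexpression and at 15.2, 18.4 and 15.3 ppm with Nmnat2 overexpression. All Nmnat2 libraries lay below the control, with a log2 fold change of -0.54 ± 0.20 (unadjusted p = 0.0215, adjusted p = 0.359, limma). With Nmnat1 the library numbered 1 lay above the control and the other 2 below it, a log2 fold change of -0.37 ± 0.20 (adjusted p = 0.634, limma). Without the libraries numbered 1 the values were -0.64 ± 0.14 with Nmnat1 and -0.54 ± 0.14 with Nmnat2. That fit leaves out the Nmnat1 library that lay above the control, so these values too are a description.

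Psmb10 overlapped between the groups, at 24.1 to 28.4 ppm with empty vector, 27.5 to 34.9 ppm with Nmnat1 and 20.7 to 36.1 ppm with Nmnat2 overexpression. Its log2 fold changes were 0.20 ± 0.20 and 0.14 ± 0.20 (adjusted p = 0.867 and 0.881, limma). It made up 9.56% to 14.4% of Psmb10 and Psmb7 together in the 9 libraries. Psmb8 was at 0.80 to 3.51 ppm and Tap1 at 0.52 to 2.65 ppm in this table, and both overlapped between the groups. Tap2 was at 1.44, 2.69 and 2.63 ppm with empty vector and at 2.71, 6.56 and 3.21 ppm with Nmnat2 overexpression, which do not overlap. Psmb9 was at or below 1.02 ppm in all 9 libraries and was listed at 0 in 1 of them, and it did not pass the filter. Nlrc5, which also failed it, was at 0.42, 0.61 and 0.80 ppm with empty vector, at 0.06, 0.15 and 0.02 ppm with Nmnat1 and at 2.01, 0.33 and 0.40 ppm with Nmnat2 overexpression. The Nmnat1 libraries lay below the control for Nlrc5 and the Nmnat2 libraries on both sides of it.

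With Nmnat1 overexpression 0 of 8 members tested passed the limma threshold and 0 had an unadjusted p under 0.05, against 0.121% of all 20725 genes called, and 1 (H2-K1, lower) did not overlap, against 17.8% of all genes. With Nmnat2 overexpression, against the same empty vector libraries, 0 of 8 passed and 1 (Tapbp) had an unadjusted p under 0.05, against 0.550% of all genes called, and 1 member higher (Tap2) and 1 lower (Tapbp) did not overlap, against 16.3% of all genes. Set against each other, the 2 overexpression groups had 0 of 8 members called and 0 with an unadjusted p under 0.05, against 0.0193% of all genes (limma). The microglia and macrophage markers, of which 9 of 20 were tested in this table, summed to 18.3 to 35.8 ppm with empty vector, 16.7 to 28.9 ppm with Nmnat1 and 27.7 to 41.4 ppm with Nmnat2 overexpression. The 10 photoreceptor markers were lower in sum with Nmnat1 (4582 to 6670 ppm) and Nmnat2 overexpression (4645 to 5381 ppm) than with empty vector (7421 to 7998 ppm). Without overlap 8 were lower with Nmnat1 and 9 with Nmnat2. The amacrine and ganglion cell markers were higher in sum (164.4 to 345.0 and 127.6 to 272.0 ppm, against 84.1 to 98.3 ppm). Calb2 gave 89.3 to 131.6 and 66.3 to 124.4 ppm of these sums, against 34.8 to 47.3 ppm. Of the 10 tested, 4 were higher without overlap with Nmnat1 and 3 with Nmnat2, and the others overlapped. The Müller glia and endothelial sums overlapped. The part of these cell types in the members' values was not tested.

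The controls of the tables differed in level for B2m and H2-K1 and overlapped for H2-D1. B2m was at 122.4 to 138.0 ppm with scramble and 61.9 to 64.7 ppm with empty vector, and H2-K1 at 24.8 to 42.6 ppm and 16.1 to 18.8 ppm. H2-D1 was at 173.7 to 208.2 ppm with scramble and 85.5 to 183.3 ppm with empty vector. The empty vector libraries lay below all scramble libraries for B2m and H2-K1, above all Nmnat1 knockdown libraries for B2m, and overlapping them for H2-K1. The tables were normalized separately and no test was made across them.

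No gene of the wider class I pathway passed the threshold in any of the 4 comparisons with a control (limma, Benjamini-Hochberg over all genes). Among the other class I heavy chains and class I-like molecules, 19 of 22 genes were tested in the knockdown table and 15 in the overexpression table. With Nmnat1 knockdown their median log2 fold change was -0.32. Without overlap 5 of the 19 were lower and 1 higher, against 24.8% of all genes in either direction. The 4 genes with the smallest p were H2-T22 (-0.61 ± 0.33), Cd1d1 (-0.91 ± 0.53), Cd1d2 (-0.96 ± 0.56) and H2-Q2 (-0.62 ± 0.37). H2-T22 and H2-Q2 stood below 5 ppm in all scramble and Nmnat1 knockdown libraries. With Nmnat2 knockdown their median was -0.44, where that of all genes tested was -0.23. Mr1, which presents vitamin B metabolites to MAIT cells, had the smallest p there, at -1.30 ± 0.37 (adjusted p = 0.135, limma). Its level was low, at 1.58 to 2.45 ppm with scramble and 0.025 to 0.59 ppm with Nmnat2 knockdown. Mr1 came ahead of Hfe, a regulator of iron uptake, at -0.86 ± 0.35 (adjusted p = 0.253, limma). With overexpression the medians were -0.09 for Nmnat1 and -0.03 for Nmnat2.

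The trimming, chaperone and loading genes, all 18 tested in both tables, had medians of 0.01 with Nmnat1 knockdown and -0.25 with Nmnat2 knockdown. The medians of all genes tested were -0.003 and -0.23, so these lie near the shift of the whole comparison. With Nmnat1 knockdown Npepps, a cytosolic aminopeptidase, was at -0.46 ± 0.15 and Psme1, a subunit of the interferon-inducible proteasome activator PA28, at -0.49 ± 0.18. Canx, the chaperone of newly made heavy chains, was higher without overlap, at 0.68 ± 0.34, as was Sec61a1, a subunit of the protein channel of the endoplasmic reticulum, at 0.84 ± 0.41. With Nmnat2 knockdown Uggt1, which checks glycoprotein folding, was at -0.65 ± 0.19 (adjusted p = 0.135, limma). Calr, another chaperone of the loading complex, was higher without overlap in both overexpression groups, at 0.27 ± 0.10 with Nmnat1 (adjusted p = 0.356, limma) and 0.40 ± 0.10 with Nmnat2 (adjusted p = 0.117, limma). Of the constitutive catalytic subunits, Psmb6 was at -0.40 ± 0.13, Psmb5 at -0.10 ± 0.18 and Psmb7 at 0.21 ± 0.14 with Nmnat1 knockdown. The lower Psmb10 share there thus came with a Psmb7 level that was higher without overlap.

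The interferon side of the pathway gave no common direction. Of 34 interferon-stimulated genes, 27 were tested in the knockdown table, with a median log2 fold change of 0.07 with Nmnat1 and -0.33 with Nmnat2 knockdown. For all genes tested these medians were -0.003 and -0.23. With Nmnat1 knockdown Usp18, a brake on type I interferon signalling, was at 1.39 ± 0.37 and Rtp4 at 1.49 ± 0.54, both higher without overlap, whereas Ifitm2, a restriction factor, was lower at -0.70 ± 0.27. The level of Rtp4 was low, at 0.40 to 4.41 ppm with scramble and 5.24 to 7.30 ppm with Nmnat1 knockdown. With Nmnat2 knockdown Parp9 was at -1.40 ± 0.48 (adjusted p = 0.186, limma) and Oasl2 at -1.44 ± 0.55 (adjusted p = 0.225, limma). Parp9 was low as well, at 3.43 to 7.63 ppm with scramble and 0.25 to 2.50 ppm with Nmnat2 knockdown. All 34 genes summed to 121.6 to 169.6 ppm with scramble. They summed to 136.9 to 153.1 ppm with Nmnat1 knockdown and 79.8 to 125.8 ppm with Nmnat2 knockdown. The class I transcription factors and interferon signalling genes (23 of 24 tested) had medians of -0.10 and -0.08 in the knockdowns and -0.03 and 0.03 in the overexpressions. The class II genes and their regulators, which mark professional antigen-presenting cells, summed to 13.0 to 21.2 ppm with scramble and 8.70 to 14.1 ppm with Nmnat1 knockdown, and 5 of 10 reached the filter.

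Across libraries the genes most like B2m were not class I genes. By the mean of the Pearson r of log2(ppm + 1) over the 9 libraries of each table, among 19690 genes kept in both, they were Nme2 (0.89), Sct (0.87), Ccnd3 (0.87), Ctxn1 (0.87) and Psmb6 (0.86). Ctxn1 stood at 117.5 to 132.2 ppm with scramble, 52.6 to 63.0 ppm with Nmnat1 knockdown and 119.2 to 153.9 ppm with Nmnat2 knockdown, nearly the values of B2m. Ccnd3, a D-type cyclin, stood at 80.2 to 98.2, 35.5 to 39.4 and 66.6 to 83.4 ppm in the same groups. Among the members H2-D1 ranked 51 (r = 0.75), Psmb10 152 (0.68), H2-K1 166 (0.68) and Tap1 1361 (0.41), and Tapbp ranked 18470, with r = -0.54. In the knockdown table these points share the difference between the Nmnat1 knockdown and the other groups, and the correlations are a description.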

How the data were processed

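The deposited values are named TPM by the authors, but the columns sum to 14.4 to 29.6 (knockdown) and 17.3 to 26.2 (overexpression) times 1000000, and were handled as expression signal scaled by length, in a unit the sources do not name. The submitters' processing notes list Salmon 0.11.3, sleuth 0.30.0 and GRCm38.p6. Per the labels' protocols, SMART-Seq v4 made the cDNA, with 1 ng of total RNA as input. The titles of 1 sample in each Nmnat2 group name Nmnat3, and the descriptions and characteristics, which name Nmnat2, were followed. Columns of the knockdown table name the group of a library but not a single sample. The incomplete last line of each table was left out.

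Values were rescaled to 1000000 per column (ppm). Genes reaching 1 ppm in 3 or more of 9 libraries entered a limma 3.58.1 fit (R 4.3.3) of log2(ppm + 1) on the 3 groups of a table, with trended empirical Bayes moderation. The scale understates changes of low genes. Tests were two-sided, with Benjamini-Hochberg adjustment over all genes and a threshold of 0.05. Fold changes are given for members averaging 5 ppm or more in 1 of the groups. Genes of the pathway lists had no such limit. The script was tested on simulated data. Low values of single-transcript genes lay near whole reads (tolerance 0.1) for 78.4% to 85.5% per library, against 20% by chance, too few to recover counts for all genes. Gene identifiers were matched without version to GENCODE M21 (10 of 10 members, 6 with the same version), and promoters to RefSeq (8 of 10). Plots used matplotlib 3.10.9 in Python 3.11.15.

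The members and lists were chosen with earlier results of these data known. All members are named, with up to 4 genes of each pathway list by smallest unadjusted p in a comparison, Nmnat1, Nmnat2 and the 5 genes most like B2m. Alternatives covered the pseudocount, filter, scaling, fit on 2 groups, array weights, trend, omission of single libraries and, with overexpression, the replicate number and the libraries numbered 1.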

Additional observations from a re-analysis of the deposited data

Results flagged for a closer look

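The effects of the 2 knockdowns, against the same scramble libraries, differed for B2m, by -1.49 on the log2 scale (Nmnat1 minus Nmnat2 knockdown), and for H2-D1, by -1.41. Both differences passed the limma threshold in the contrast of the knockdowns, and all 3 Nmnat1 knockdown libraries lay below all 3 Nmnat2 knockdown libraries for each gene. The Nmnat1 knockdown libraries led to the choice of these genes, so the differences are a description.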

How the results depend on the processing

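The count of members called with Nmnat1 knockdown against scramble, 2 in the report, was 1 (H2-D1) with a pseudocount of 0.1, with no filter on low values and with median-of-ratios scaling, 0 with no mean-variance trend, 3 with the fit on 2 groups or array weights, and 0 to 3 with single libraries left out. Between the knockdowns it was 1 with the fit on 2 groups, 5 with array weights and 0 to 4 with single libraries left out. Among all genes that contrast called 458 in the report and 83 to 2933 with single libraries left out. The other alternatives called 150 to 6072 there, so nothing is read from these counts of members. With Nmnat2 knockdown it was 0 in every alternative run. With Nmnat1 overexpression it was 1 (Tapbp) with array weights and 2 (H2-D1 and Tapbp) without the libraries numbered 1, with Nmnat2 overexpression 1 (H2-D1) without those libraries, and 0 otherwise. Signs turned only for differences that are not called in the report. With Nmnat2 knockdown, H2-D1 was at 0.14 with median-of-ratios scaling and 0.053 with array weights, and array weights put B2m at -0.10 and Psmb10 at -0.041. With Nmnat1 overexpression B2m was at 0.044 with array weights and 0.072 without the libraries numbered 1, and with Nmnat2 overexpression H2-D1 was at 0.34 and 0.59, the latter a called difference. With single libraries left out, B2m ranged from -0.18 to 0.21 with Nmnat2 knockdown, -0.15 to 0.093 with Nmnat1 and -0.11 to 0.0070 with Nmnat2 overexpression. H2-D1 ranged from -0.20 to 0.090, -0.052 to 0.50 and -0.45 to 0.23 in the same comparisons, and Psmb10 from -0.13 to 0.36 with Nmnat2 knockdown and -0.011 to 0.38 with Nmnat2 overexpression. The cause of these changes was not tested. Among all genes, the count called with Nmnat1 knockdown (32) ranged from 0 to 1826, with Nmnat2 knockdown (97) from 0 to 5101, with Nmnat1 overexpression (25) from 2 to 1951, and with Nmnat2 overexpression (114) from 3 to 1431 over all alternatives. No paired analysis was possible for the knockdown table because its columns name a group and could not be tied to single samples, so that the numbers in their names are not known to be the replicate numbers of the labels. In the overexpression table, deviations of same-numbered libraries correlated at 0.03 to 0.46, different-numbered ones at -0.38 to 0.24, and 7 of 9 libraries correlated best with their own number, which is a hint from the data only. With the replicate block, 0 members were called in each overexpression comparison, and the genes called among all rose to 187 with Nmnat1 and 269 with Nmnat2. Tap1, Tap2, Psmb8, Psmb9 and Nlrc5 averaged less than 5 ppm in every group. No detection limit was computed for them, and differences in them may have gone undetected.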
